A study of Mus musculus with 4 samples.

Results

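TRBV2, TRBV4 and TRBV5 are 3 variable segments near the upstream end of the mouse T-cell receptor beta locus. They are also known by the older names Vβ4, Vβ10 and Vβ1. Their rearrangements were taken from deposited lists of TRB clonotypes as every row whose best V hit, without its allele, was one of these names. That gave 20786 of 261962 rows, of which 5427 were TRBV2, 11709 TRBV4 and 3650 TRBV5. The main set was the in-frame rows without a stop codon, 4690, 9481 and 3300 of 238470 in the series. Out-of-frame rows numbered 2859 of 22386 and served as the reference that was not selected for its protein. A stop codon in the reading frame was found in 456 rows of the 3 segments, of 1106 in all. Each row is a clonotype, a CDR3 nucleotide sequence joined to named V and J segments.

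The cells were CD8+ T cells (DAPI-, CD45+, CD3+, CD8+) sorted from livers that carried MC38 tumors. The labels call MC38 a melanoma, although it is commonly known as a mouse colon adenocarcinoma line. There were 2 libraries from wild-type mice and 2 from Vsig4-deficient (Vsig4-/-, labelled VSIG4 KO) mice, all taken 14 days after MC38 injection. Vsig4 encodes an immune-regulatory receptor of tissue macrophages such as Kupffer cells, and it is the deletion that separates the groups. Strain, age and whether each library came from a separate animal are not given, and p-values therefore reflect the spread among these libraries alone, which may be technical. The tables hold no other transcripts, so neither the sort nor the deletion could be checked in them.

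Each library held 901567 to 1269480 counts in 52227 to 81858 rows. Values are given throughout in the order wild-type 1, wild-type 2, Vsig4-deficient 1 and Vsig4-deficient 2. The second Vsig4-deficient library stood apart in ways that touch the results. Its largest clonotype took 16.6% of in-frame counts, against 3.12%, 2.14% and 5.47% in the others. Its ratio of in-frame to out-of-frame clonotypes, with TRBV4 left out, was 14.8, against 10.4, 10.02 and 9.82. Its clonotypes had a median of 3 counts, against 7, 6 and 5, and 33.0% of them had a single count, against 21.4%, 17.6% and 20.9%.

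A beta chain is built by joining a V, a D and a J segment. Exonucleases remove bases from the segment ends before they are joined, palindromic bases can stay, and terminal transferase adds untemplated ones. The junction encodes CDR3, the loop that reads the peptide. Only rearrangements that keep the reading frame make a receptor, and out-of-frame joins are carried by cells whose other allele was productive.

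The germline ends of the 3 segments are shown first, because the stop codon, V-end and residue results below refer to them. Each was read from CDR3 sequences in which no V base had been removed, and the capitals mark the fifth CDR3 codon.
TRBV2: tgtgccagcagcCAAga
TRBV5: tgtgccagcagcCAAga
TRBV4: tgtgccagcagcTAAga
These ends were present in 97.4% of 1936 untrimmed TRBV2 rows, 97.1% of 752 TRBV5 rows and 82.7% of 370 TRBV4 rows. The 370 include 11, 29, 9 and 10 in-frame rows by library. By the rule for in-frame rows none of these can hold the TAA, which lowers the TRBV4 percentage. TRBV2 and TRBV5 had the same 17 bases. TRBV4 differed from both by the single substitution C13T, with positions counted from 1 at the 5′ end of the CDR3. That base turns the glutamine codon CAA into the stop codon TAA. Of the 23 segments with at least 20 untrimmed rows, TRBV4 alone had an in-frame stop codon in its V end.

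The 3 genes lie on chromosome 6 of the RefSeq gene list for GRCm38.p6, listed as V-segment genes, and the submitters name mm10 as their build. Trbv2 spans chr6:41047556-41047995, Trbv4 chr6:41059443-41059886 and Trbv5 chr6:41062359-41062803. They rank 2, 4 and 5 from the upstream side among the 26 listed Trbv genes that also occur as V hits in the clonotypes. Trbv2 starts 155671 bases after the end of Trbv1, and 399 bases lie between Trbv2 and Trbv3. Trbv4 and Trbv5 are 2473 bases apart. The CDR3 V ends above were read from the clonotype tables and not from the genome.

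TRBV4 supplied 436 of the 1106 rows with a stop codon, 39.4% (95% Wilson interval 36.6% to 42.3%, counting error only). By library the share was 39.8%, 42.4%, 42.4% and 31.7%. The stop lay at codon 5 in 420 of the 436 rows, and in 374 it was the TAA of the V end. TRBV13-2 came next with 101 rows, while TRBV2 had 14 and TRBV5 had 6. Among TRBV4 rows whose CDR3 length was a multiple of 3, 4.57%, 4.85%, 4.87% and 3.24% held a stop codon. The other segments together held one in 0.317%, 0.322%, 0.276% and 0.253%, so the TRBV4 value was higher in each of the 4 libraries. The median TRBV4 row with a stop had 2 counts, and the median in-frame TRBV4 row 3.

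The V-end TAA was common where the frame was lost and rare where it was kept. It remained in 45.2%, 41.5%, 41.1% and 39.8% of out-of-frame TRBV4 rows, 751 of 1792 in all. Of rows with a CDR3 length divisible by 3 it remained in 3.76%, 4.27%, 4.24% and 2.72%, 374 of 9917 in all. The first share was the higher in each of the 4 libraries. The in-frame set holds no such row, because the rule removes rows with a stop codon.

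The frames also differed in how far the V end had been cut back. The mean position of the last V base, counted from the germline end (0 is uncut, negative values are bases removed and positive values are palindromic bases), was -4.63, -4.59, -4.70 and -4.67 in in-frame TRBV4. In out-of-frame TRBV4 it was -2.91, -3.01, -3.11 and -2.95. Rows with a stop codon lay nearest to the germline end, at -0.98, -0.96, -0.93 and -0.80. The in-frame and stop-codon values are partly fixed by the rule, since a TRBV4 row that keeps the TAA in frame is a stop-codon row. With both sets joined, as all rows with a CDR3 length divisible by 3, the mean position was -4.47, -4.41, -4.52 and -4.55. In that joined set 94.9% of rows had lost 3 or more V bases, against 57.7% out of frame. An uncut V end, palindromic bases included, was kept by 2.46% and 17.6%.

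TRBV2 and TRBV5, which share a V end, were cut differently from each other. TRBV2 kept its end in 63.3% of in-frame and 50.9% of out-of-frame rows. TRBV5 kept it in 36.8% and 38.4%. The mean position was -0.64 in in-frame and -1.10 in out-of-frame TRBV2, and -1.68 and -1.54 in TRBV5. Over the segments other than these 3 it was -2.20 in both sets. In-frame TRBV2 was above in-frame TRBV5 in each of the 4 libraries, from -0.68 to -0.61 against -1.75 to -1.62. The difference in cutting between TRBV2 and TRBV5 was not tested across segments.

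A test of the mean V-end position in rows with a CDR3 length divisible by 3 (stop codons kept) against out-of-frame rows was added after the pattern was seen. It used limma over 20 segments and called 5 of them (25% of those tested), 1 of which was lower (5%). TRBV4 was the segment called lower, with 1.49 fewer V bases (-1.49 ± 0.07 SE, 4 libraries, adjusted p 2.7e-05). TRBV2 had the largest difference in the other direction, 0.44 ± 0.06 bases (adjusted p 0.0048). TRBV5 was not called at -0.13 ± 0.11. It was called without wild-type 1, at -0.26, and with clonotypes of 1 count left out, at -0.34.

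**Figure D1:**
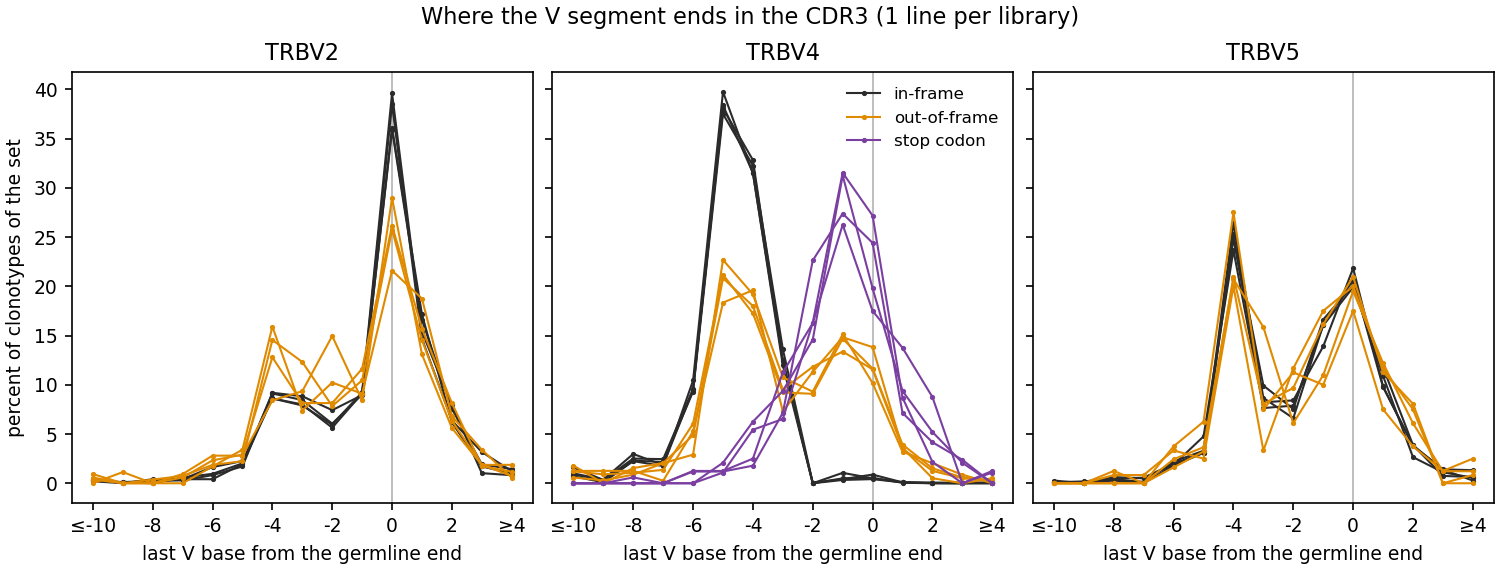
Position of the last V base relative to the germline V end (x axis, bases) as a percentage of clonotypes (y axis), with 1 line per library, for in-frame (black), out-of-frame (orange) and, for TRBV4, stop-codon rows (purple). In-frame TRBV4 is nearly empty from -2 upward while out-of-frame TRBV4 is not. TRBV2 peaks at 0 in both sets, and TRBV5 has peaks at -4 and 0.

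The fifth residue of the in-frame protein differed between the 3 segments as well. TRBV2 had glutamine (Q) there in 83.3% to 84.1% of clonotypes over the 4 libraries, with proline (P) next at 6.15% to 6.87%. TRBV5 had glutamine in 63.4% to 65.7% and proline in 18.2% to 21.2%. TRBV4 had no prevailing residue. Serine was found in 15.8% to 15.99%, proline in 14.8% to 15.98%, tyrosine in 12.3% to 13.8% and leucine in 9.86% to 10.7%. Glutamine was rare in TRBV4, at 3.06% to 3.74%. The opening CASS was kept in 87.9% to 88.6% of in-frame TRBV4 clonotypes and in 97.4% to 98.5% of TRBV2 and TRBV5 clonotypes.

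TRBV4 and TRBV2 made up a smaller part of the in-frame than of the out-of-frame repertoire, and the TRBV5 difference did not pass the test. TRBV4 was 8.33%, 8.59%, 7.79% and 6.99% of out-of-frame clonotypes and 4.21%, 4.47%, 3.82% and 3.40% of in-frame ones. TRBV2 was 3.60%, 3.48%, 3.52% and 2.17% of out-of-frame and 2.05%, 2.30%, 2.22% and 1.39% of in-frame clonotypes. TRBV5 was 1.67%, 1.56%, 1.64% and 1.26% against 1.68%, 1.43%, 1.55% and 1.02%. The out-of-frame share was the higher in each of the 4 libraries for TRBV4 and TRBV2 and in 3 of 4 for TRBV5. Whether TRBV5 differs from the other 2 in this was not tested.

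Within the libraries, edgeR's quasi-likelihood test with the library as a block called 15 of 24 segments between the frames (62.5%), 8 of them lower in frame (33.3%). TRBV4 was lower by 0.99 on the log2 scale (-0.99 ± 0.06 SE, Benjamini-Hochberg adjusted p 5.7e-26) and had rank 5 from the lowest of the 24. TRBV2 was lower as well (-0.68 ± 0.08, adjusted p 1.5e-11). With stop-codon rows as the reference, of which TRBV4 holds 39.4%, TRBV2 was at 0.68 ± 0.40 and not called (adjusted p 0.113). With that reference TRBV5 was called higher, at 1.38 ± 0.55 (adjusted p 0.023). The TRBV5 difference did not pass the test (-0.12 ± 0.11, adjusted p 0.340), and it was called at -0.97 (adjusted p 0.0071) when rows were weighted by their counts. Most segments were called, so the calls alone do not set TRBV4 and TRBV2 apart.

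TRBV4 had 5.03, 4.99, 4.62 and 6.94 in-frame clonotypes for each out-of-frame clonotype. The other segments had 10.4, 10.02, 9.82 and 14.8. With the TAA-bearing rows left out of the out-of-frame count, the TRBV4 ratio was 9.19, 8.52, 7.84 and 11.5, still below the other segments in each of the 4 libraries. The log2 difference between frames was then -0.26 ± 0.07 (adjusted p 0.00070, edgeR). With stop-codon rows kept in the in-frame set it was -0.94 ± 0.06 (adjusted p 1.7e-24). Both alternatives were added after the data were seen. TRBV2 had 5.67, 6.34, 5.92 and 9.11 in-frame clonotypes for each out-of-frame one and has no stop codon in its V end. For TRBV5 the ratio was 9.99, 8.82, 8.87 and 11.5.

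**Figure D2:**
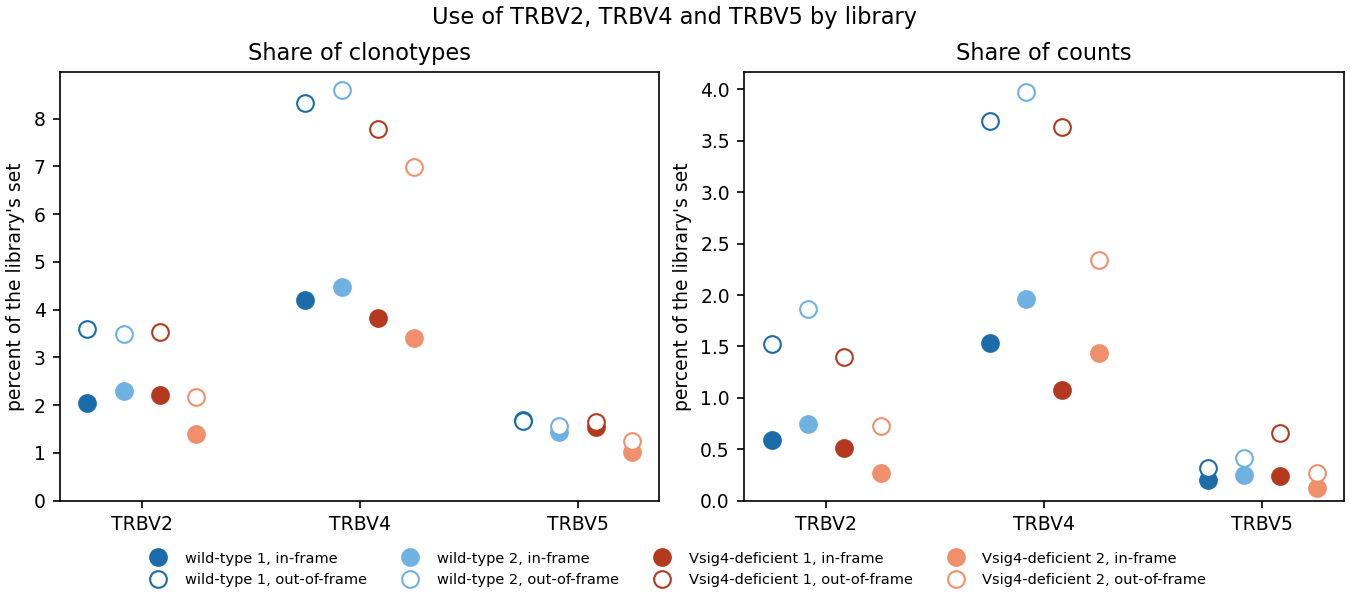
Percentage of in-frame clonotypes (filled) and out-of-frame clonotypes (open) that used TRBV2, TRBV4 or TRBV5 in each library (left), and the same for summed counts (right). The open circles of TRBV4 lie at 6.99% to 8.59% of clonotypes and the filled ones at 3.40% to 4.47%.

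The 3 segments were of middle to low use among in-frame clonotypes. TRBV4 ranked 10 of 23, TRBV2 15 and TRBV5 17 by mean share. TRBV3 and TRBV1, the other segments of this region, were used more, with mean shares of 9.14% and 7.10%. By counts the 3 segments were lower still. TRBV4 held 1.53%, 1.96%, 1.08% and 1.44% of in-frame counts, TRBV2 0.591%, 0.749%, 0.509% and 0.270%, and TRBV5 0.205%, 0.252%, 0.245% and 0.123%.

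Between genotypes, no segment was called by clonotypes. The edgeR fit called 0 of 23 segments (0%), and none had an unadjusted p under 0.05 (0 of 23). The DESeq2 alternative also called 0. TRBV4 was lower in both Vsig4-deficient libraries than in both wild-type libraries, which was true of 6 of the 23 segments (26.1%). Its log2 difference was -0.27 ± 0.10 (SE, 2 against 2 libraries, adjusted p 0.551). TRBV2 was at -0.27 ± 0.25 and TRBV5 at -0.28 ± 0.24, with the same adjusted p, and their groups overlapped. The values depended on single libraries. In each such fit 1 group is a single library, assumed to vary like the other 2. Without Vsig4-deficient 1, 13 segments were called, among them TRBV2 (-0.65), TRBV4 (-0.35) and TRBV5 (-0.60). Without Vsig4-deficient 2, 1 segment was called, TRBV2 was at 0.02, TRBV5 was at -0.0017 and TRBV4 was not called.

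By counts the groups did not overlap for TRBV2 and TRBV4, which was true of 9 of 23 segments (39.1%) for lower Vsig4-deficient values. Among 24 segments edgeR called 0 (0%), and 4 had an unadjusted p under 0.05 (16.7%). The DESeq2 alternative called 1. The log2 differences were -0.78 ± 0.51 for TRBV2, -0.48 ± 0.39 for TRBV4 and -0.31 ± 0.63 for TRBV5 (adjusted p 0.385, 0.476 and 0.825). Without Vsig4-deficient 1 the fit called 5 segments, with TRBV2 at -1.31, TRBV4 at -0.28 and TRBV5 at -0.90. Without Vsig4-deficient 2 it called 2, with these at -0.40, -0.70 and 0.10, and without wild-type 2 TRBV4 was at -0.28 and TRBV5 at -0.16. Normalization moved TRBV4 to -0.20 (TMM) and -0.13 (DESeq2), TRBV5 to -0.14 and -0.02 and TRBV2 to -0.60 and -0.49. In the main fit the median difference over the 24 segments was -0.29. In cells sorted and pooled in bulk, a lower share of counts can come from fewer cells or fewer counts per cell. It can also come from larger clonotypes of other segments, and these sources cannot be told apart. The ratio of the frames did not pass the test for a genotype difference in any of 24 segments (0%), 1 had an unadjusted p under 0.05 (4.17%), and 1 was called without Vsig4-deficient 1. The log2 difference in the ratio was 0.03 ± 0.11 for TRBV2, -0.07 ± 0.06 for TRBV4 and -0.12 ± 0.12 for TRBV5.

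By mean share, all 3 segments were joined most often to TRBJ2-7, TRBJ2-1 and TRBJ2-5, as were the rest. In TRBV5, TRBJ1-1 took 11.5%, 9.55%, 13.1% and 10.8% (92, 101, 95 and 77 clonotypes). TRBJ2-5 took 12.5%, 13.99%, 12.1% and 9.50% (100, 148, 88 and 68 clonotypes), so their order differed between libraries. J pairing was not tested between genotypes. TRBJ2-7 took a mean of 19.2% ± 1.21 (SD, n = 4) of in-frame TRBV2, 21.3% ± 0.193 of TRBV4 and 19.2% ± 1.61 of TRBV5 clonotypes. For each segment, the share of each J was compared with its share among all other V segments. The edgeR test called 127 of 259 V-J pairs (49%), with 67 higher (25.9%) and 60 lower (23.2%). TRBV4 departed from the rest at 9 of its 12 J segments, TRBV5 at 3 and TRBV2 at 2. The called share was above 49% for TRBV4 and below it for TRBV5 and TRBV2. TRBV4 also had the most in-frame clonotypes, 9481 against 4690 in TRBV2 and 3300 in TRBV5. Its SE at TRBJ2-7 was 0.04, against 0.05 and 0.06. Smaller differences could therefore be called in TRBV4, and the numbers of calls do not rank the segments.

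TRBV4 was called lower at 4 of the 6 J segments of the upstream cluster, TRBJ1, and TRBJ1-4 and TRBJ1-6 did not pass the test (adjusted p 0.052 and 0.204, edgeR). The cluster as a whole was not tested. Its segments made up 24.8%, 24.6%, 24.1% and 25.6% of its clonotypes, against 30.9%, 31.6%, 32.6% and 31.8% of the others. The largest decrease was at TRBJ1-3, with 2.40%, 2.61%, 2.62% and 2.35% against 4.01%, 3.99%, 3.98% and 3.74% (log2 ratio -0.65 ± 0.09 SE, adjusted p 2.0e-10, edgeR). TRBJ1-2 (-0.49), TRBJ1-5 (-0.37), TRBJ1-1 (-0.36) and TRBJ2-2 (-0.32) were also lower. The largest increase was at TRBJ2-5, with 14.5%, 14.2%, 15.1% and 14.1% against 11.99%, 12.05%, 11.86% and 12.05% (0.27 ± 0.05, adjusted p 2.0e-06). TRBJ2-4 (0.23), TRBJ2-7 (0.15) and TRBJ2-1 (0.13) were higher. Of the 5 lower pairs 4 were TRBJ1 pairs, and the 4 higher ones were all TRBJ2 pairs.

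TRBV5 had the largest departure of the 3 segments, at TRBJ1-2. It was found in 2.63%, 3.40%, 1.51% and 4.19% of in-frame TRBV5 clonotypes, 21, 36, 11 and 30 clonotypes. The other segments used it in 6.22%, 6.40%, 6.66% and 6.90% (log2 ratio -1.14 ± 0.12 SE, adjusted p 1.0e-14, edgeR). TRBV5 was higher at TRBJ2-1 (0.27 ± 0.07, adjusted p 0.00066) and at TRBJ1-1 (0.21 ± 0.08, adjusted p 0.026). TRBV2 was lower at TRBJ1-1 (-0.40 ± 0.08, adjusted p 1.4e-05) and at TRBJ1-3 (-0.36 ± 0.11, adjusted p 0.0063). TRBJ1-1 took 7.38%, 6.83%, 8.54% and 6.77% of TRBV2 and 9.34%, 9.81%, 9.92% and 9.35% of the others.

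Out-of-frame clonotypes are far fewer, and there the test called 9 of 228 pairs and none of these 3 segments. TRBV5 with TRBJ1-2 was at -0.76 ± 0.38 (adjusted p 0.218) and TRBV4 with TRBJ2-5 at 0.19 ± 0.09 (adjusted p 0.218), in the same direction as in frame. Of the 14 pairs called in frame, 5 had the other sign out of frame. These were TRBV5 with TRBJ2-1 (-0.09) and TRBJ1-1 (-0.14), and TRBV4 with TRBJ1-1 (0.03), TRBJ2-2 (0.06) and TRBJ2-7 (-0.08). Whether the J pairing differs between the frames was not tested. The J profiles most like that of TRBV2 were those of TRBV3 and TRBV13-2, with total variation distances of 0.0423 and 0.0424 over 12 J segments and 4 libraries (20 segments compared). TRBV4 was nearest to TRBV16 (0.0507) and TRBV2 (0.0579), and TRBV5 to TRBV14 (0.0490) and TRBV13-1 (0.0623).

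**Figure D3:**
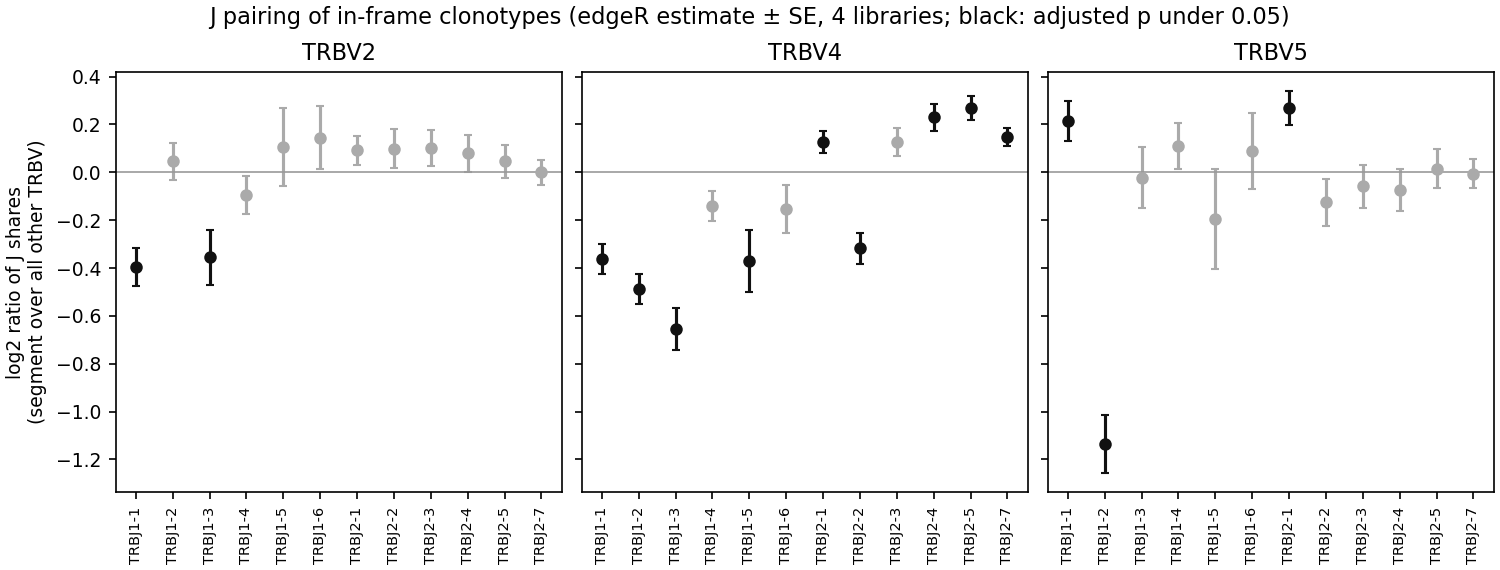
Log2 ratio of each J segment's share among in-frame clonotypes of TRBV2, TRBV4 or TRBV5 to its share among all other V segments (edgeR estimate, bars are SE, 4 libraries). Black points passed an adjusted p of 0.05. TRBV4 lies below 0 at each of the 6 TRBJ1 segments, 4 of them called, and TRBV5 with TRBJ1-2 is the lowest point at -1.14.

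TRBV2 and TRBV5 encoded long CDR3 loops and TRBV4 did not. The mean in-frame CDR3 had 14.7 ± 0.0259 amino acids (SD, n = 4) in TRBV2, 14.4 ± 0.0435 in TRBV5 and 13.9 ± 0.0439 in TRBV4, counted from the first cysteine to the last phenylalanine. In limma on the difference from all other segments, 18 of 21 segments were called (85.7%), 8 of them longer (38.1%). TRBV2 was longer by 0.79 ± 0.01 amino acids (SE, adjusted p 2.3e-07), the largest difference of the 21, and TRBV5 by 0.50 ± 0.02 (adjusted p 2.5e-06), the next. TRBV4 was not called, at -0.02 ± 0.02. Nearly every segment was called, so a call alone says little about TRBV2 or TRBV5.

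Loops of 17 or more amino acids made up 8.19% ± 1.38 of TRBV2 (SD, n = 4), 5.99% ± 0.980 of TRBV5 and 2.18% ± 0.116 of TRBV4 clonotypes. The other segments had 2.78%, 2.85% and 2.92% in the same comparisons. The commonest length was 15 in TRBV2 and TRBV5 and 14 in TRBV4 in each of the 4 libraries. Out of frame, the mean length of TRBV2 was 14.6 codons and that of TRBV5 14.7, against 14.0 for the other segments, higher in each of the 4 libraries for both. Out-of-frame TRBV4 had 14.1. In frame, the bases between the V and the J numbered 10.9 on average in TRBV4, 9.06 in TRBV2 and 9.52 in TRBV5, against 9.41 in the rest. Out of frame TRBV4 had 9.73 and the rest 9.96. No segment of 21 passed the test for a genotype difference in length (0%), and 1 had an unadjusted p under 0.05 (4.76%). The differences were 0.02 ± 0.03, -0.04 ± 0.04 and 0.06 ± 0.04 amino acids for TRBV2, TRBV4 and TRBV5. With clonotypes of 1 count left out, 2 segments were called, among them TRBV5 at 0.15 amino acids longer in Vsig4-deficient libraries (adjusted p 0.014).

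**Figure D4:**
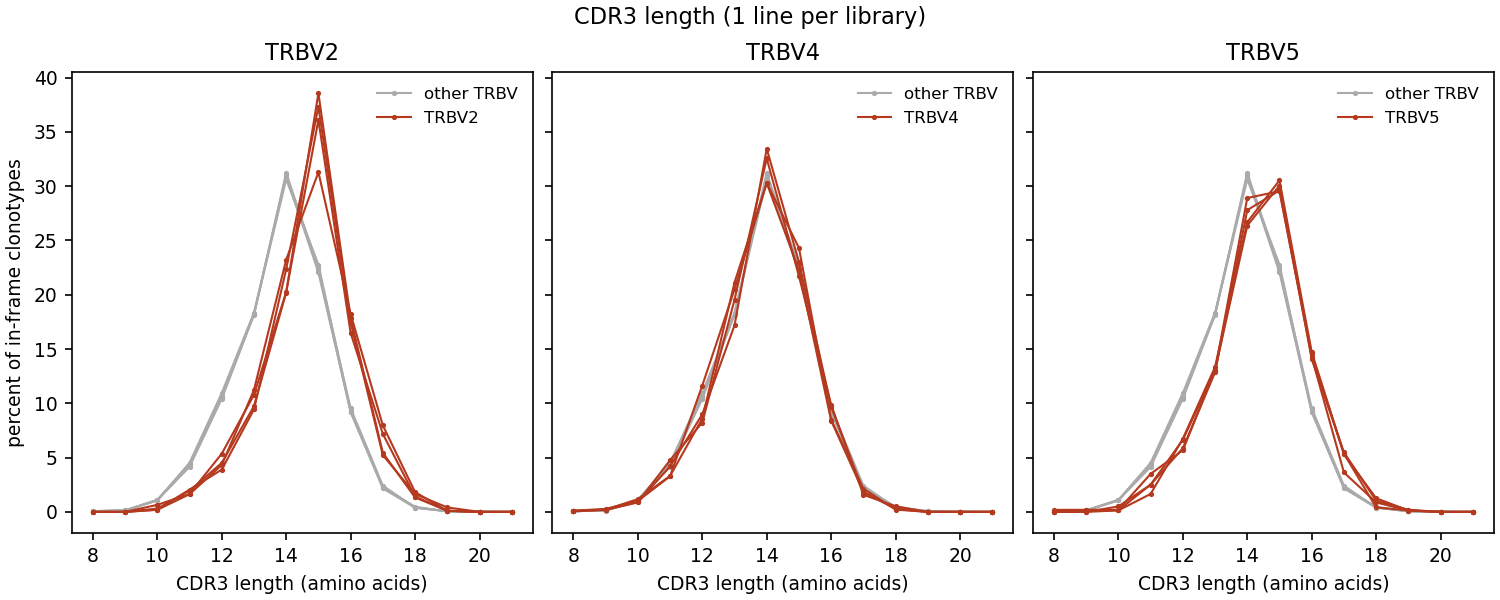
Distribution of CDR3 length in amino acids among in-frame clonotypes, with 1 line per library, for TRBV2, TRBV4 and TRBV5 (red) and for all other segments (grey). TRBV2 and TRBV5 lie to the right of the grey lines, with means of 14.7 and 14.4, and TRBV4 lies on them.

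Clonotypes of all 3 segments had few counts. The median in-frame clonotype had 3, 3, 3 and 2 counts in TRBV2, 4, 3, 3 and 2 in TRBV4 and 2, 1, 1 and 1 in TRBV5, against 7, 6, 5 and 3 in the library. Clonotypes with a single count were 44.4%, 51.2%, 52.4% and 54.1% of TRBV5, 25.8%, 28.0%, 28.8% and 45.4% of TRBV2 and 20.8%, 21.8%, 22.9% and 38.7% of TRBV4. The TRBV4 share was above that over all segments, given earlier, in 3 of 4 libraries. Mean counts per clonotype, as a ratio to the mean in-frame clonotype of the library, were 0.288, 0.325, 0.230 and 0.194 for TRBV2. They were 0.363, 0.439, 0.282 and 0.422 for TRBV4 and 0.122, 0.176, 0.158 and 0.120 for TRBV5. In limma on the log2 ratios 16 of 21 segments were called (76.2%), 13 of them lower (61.9%). The 3 segments were among those, at -2.82 ± 0.18 for TRBV5 (SE, adjusted p 6.1e-23), -1.98 ± 0.18 for TRBV2 (adjusted p 5.0e-16) and -1.43 ± 0.18 for TRBV4 (adjusted p 7.6e-11). The median over the 21 segments was -1.04, and TRBV5, TRBV2 and TRBV4 had ranks 4, 7 and 8 from the lowest. Most segments were called lower, so a call alone says little about these 3. The SE was the same for each of them because the fit pooled the variance over segments.

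The same ratio among out-of-frame clonotypes, taken to the out-of-frame mean of the library, was also below 1. That mean was 8.41, 5.57, 8.26 and 8.28 counts, against 18.4, 11.6, 20.4 and 17.5 in frame. The out-of-frame ratio ran from 0.336 to 0.534 in TRBV2, from 0.334 to 0.467 in TRBV4 and from 0.187 to 0.402 in TRBV5. For TRBV2 and TRBV5 the in-frame ratio was the lower in each library, and for TRBV4 in 3 of 4. These ratios have different denominators, so a lower ratio is not a lower count. Mean counts were 5.30, 3.78, 4.68 and 3.40 in frame and 3.57, 2.98, 3.28 and 2.79 out of frame in TRBV2. In TRBV5 they were 2.24, 2.04, 3.23 and 2.10 against 1.575, 1.47, 3.32 and 1.76. Counts depend on the amplification of each segment as well as on the cells, and its part in these ratios was not tested. No segment of 21 passed the test for a genotype difference (0%), and 2 had an unadjusted p under 0.05 (9.52%). Without Vsig4-deficient 2, 1 segment was called. The differences were -0.54 ± 0.33 for TRBV2, -0.21 ± 0.33 for TRBV4 and -0.09 ± 0.33 for TRBV5.

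**Figure D5:**
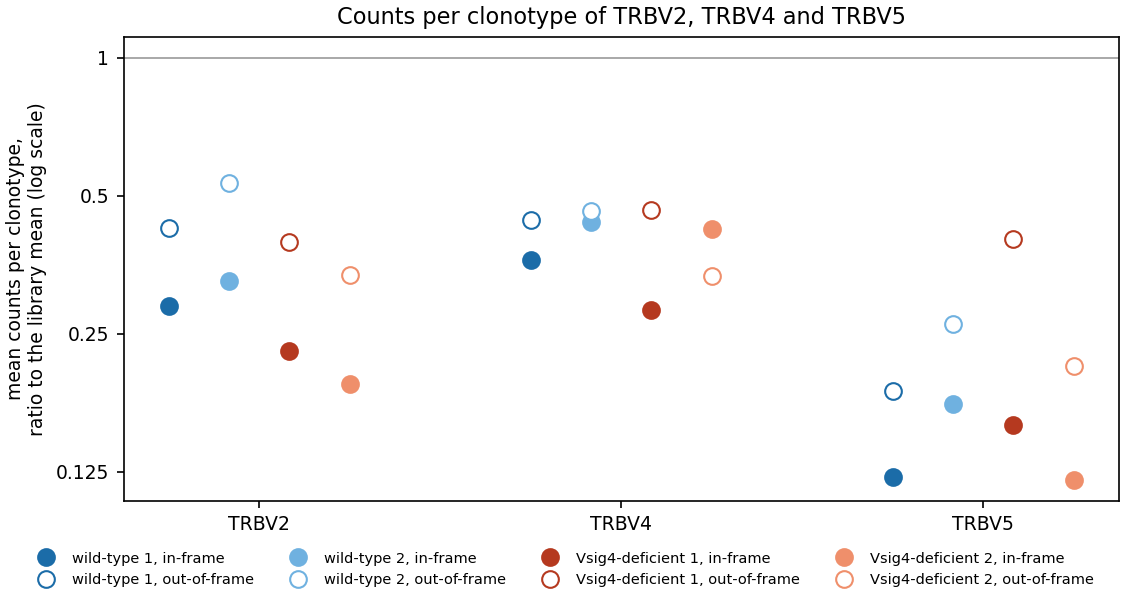
Mean counts per clonotype of TRBV2, TRBV4 and TRBV5 (y axis, log scale), for in-frame (filled) and out-of-frame (open) clonotypes of each library. Filled points are divided by the in-frame mean of the library and open points by its out-of-frame mean. The line at 1 is that mean, and every point lies below it, with the lowest in-frame values in TRBV5 (0.120 to 0.176).

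The share of a segment's counts held by its 10 largest clonotypes was higher in both Vsig4-deficient than in both wild-type libraries for each of the 3 segments, and the same held for 17 of 21 segments (81%). Of in-frame TRBV2 counts, 13.1%, 12.9%, 22.7% and 20.1% belonged to the 10 largest clonotypes of the segment. The same share was 10.1%, 13.4%, 17.01% and 44.5% in TRBV4 and 7.19%, 9.17%, 40.3% and 13.4% in TRBV5. Each two-sided exact permutation p was 0.33, the smallest that 2 against 2 libraries can give. Over all segments the 10 largest held 8.93%, 5.13%, 24.8% and 28.8% of counts. The highest values came from single libraries. Without Vsig4-deficient 2 the TRBV4 difference was 5.26 percentage points, and without Vsig4-deficient 1 it was 32.7. For TRBV5 these were 32.1 and 5.23.

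The largest clonotypes show these junctions. The capitals in each sequence mark the bases between the V and the J segment, and the lower case letters before and after them are V and J bases.
TRBV4 with TRBJ2-5, Vsig4-deficient 2: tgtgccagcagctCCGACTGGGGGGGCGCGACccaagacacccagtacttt
TRBV4 with TRBJ2-5, wild-type 2: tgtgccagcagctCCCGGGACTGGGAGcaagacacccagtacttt
TRBV5 with TRBJ2-2, Vsig4-deficient 1: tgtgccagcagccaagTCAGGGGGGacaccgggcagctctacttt
TRBV2 with TRBJ2-3, wild-type 2: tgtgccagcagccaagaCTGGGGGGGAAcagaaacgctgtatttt
The first had 4268 counts, 0.348% of the library's in-frame counts (95% Wilson interval 0.337% to 0.358%). It made up 24.2% of TRBV4 counts there, was listed with 10 counts in Vsig4-deficient 1 and was in neither wild-type library. The next had 1393 counts in wild-type 2, 133 in wild-type 1 and 2 in Vsig4-deficient 2. Both TRBV4 clonotypes had lost 4 V bases, so the TAA was gone. The TRBV5 clonotype had 713 counts, 30.4% of that segment's counts in Vsig4-deficient 1, and 15 counts in Vsig4-deficient 2. The TRBV2 clonotype had an uncut V end and 599 counts, with 1 in wild-type 1 and 3 in Vsig4-deficient 2. In the libraries not shown, the largest clonotype had 122, 459 and 268 counts in TRBV2, 538 and 715 in TRBV4 and 24, 102 and 39 in TRBV5. The clonotypes at ranks 2 and 3 had 32 to 186 counts in TRBV2, 133 to 1404 in TRBV4 and 13 to 63 in TRBV5.

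Few clonotypes of these segments were shared between libraries. Of 4168 TRBV2 amino acid clonotypes (CDR3 with V and J), 92.2% were found in a single library, as were 91.0% of 8322 TRBV4 and 94.9% of 3086 TRBV5, against 84.8% of 186302 over all segments. All 4 libraries held 7 of TRBV2 (0.168%) and 13 of TRBV4 (0.156%), against 0.839% over all segments. TRBV5 had 0 of 3086, which allows a share of up to 0.0972%. The wild-type and the Vsig4-deficient pair shared 88 and 101 clonotypes in TRBV2, 218 and 219 in TRBV4 and 34 and 41 in TRBV5. Pairs of unlike genotype shared 51 to 82, 83 to 216 and 21 to 31. Over all segments the numbers were 9000 and 9878 against 4448 to 9375. They were not adjusted for library size, and their cause was not tested. Counts per clonotype were low in these segments, and their part in the sharing was not tested. The clonotypes in all 4 libraries had a mean length of 13.7 amino acids in TRBV2 and 13.5 in TRBV4, and those in a single library 14.8 and 14.0. Over all segments these were 13.4 (1564 clonotypes) and 14.1.

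The shared clonotypes with the highest mean share show how each V end was used. Their most abundant nucleotide versions are given with the bases between V and J in capitals, where there are any. Palindromic bases at the V end are counted with V and stay in lower case.
TRBV2, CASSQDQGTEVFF: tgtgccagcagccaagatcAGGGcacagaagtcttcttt
TRBV2, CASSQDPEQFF: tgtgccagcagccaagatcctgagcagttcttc
TRBV2, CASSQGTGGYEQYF: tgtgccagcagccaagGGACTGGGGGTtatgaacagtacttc
TRBV4, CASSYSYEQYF: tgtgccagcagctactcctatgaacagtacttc
TRBV4, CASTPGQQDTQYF: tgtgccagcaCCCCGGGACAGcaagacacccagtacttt
TRBV4, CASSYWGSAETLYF: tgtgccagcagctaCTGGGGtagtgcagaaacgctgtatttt
The first TRBV2 clonotype, with TRBJ1-1, had 11, 6, 186 and 43 counts. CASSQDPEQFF, with TRBJ2-1, had 65, 2, 7 and 3. In both, the tc after the 17 V bases is palindromic, 2 bases that are counted with V. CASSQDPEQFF had no further base before the J. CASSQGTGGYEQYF, with TRBJ2-7, had 13, 24, 26 and 2 and was written by 6 nucleotide sequences. These 3 kept at least 16 of the 17 V bases and the glutamine of codon 5. Among the TRBV4 clonotypes, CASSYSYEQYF (TRBJ2-7) had 40, 12, 182 and 19 counts, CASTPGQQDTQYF (TRBJ2-5) 25, 18, 9 and 68, and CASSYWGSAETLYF (TRBJ2-3) 30, 26, 11 and 1. They had lost 3, 7 and 3 V bases. In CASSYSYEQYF and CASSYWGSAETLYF the remaining TA of the germline stop codon became part of a tyrosine codon.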

How the data were processed

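TRB clonotypes of CD8+ T cells from 2 wild-type and 2 Vsig4-deficient samples were analysed, grouped by the sample labels. The deposited tables give, per the file headers, a whole-number clone count per CDR3 sequence with V and J hits and alignment positions. In every table the deposited fraction is the count divided by the table total, and it was not used further. The submitters' processing notes name mm10. The assembler, its filters and the nature of a count (read or molecule) were not given in the sources used here. Quality was not filtered. Intervals are 95% Wilson intervals.

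The first V hit was taken (tied in 0% to 0.151% of rows of these segments by library). The members and lists were chosen with earlier results of these data known. Named were the 3 segments, TRBV1 and TRBV3, the 3 J segments used most and those called with the largest change, the 3 largest clonotypes of each library, the 3 shared by all libraries with the highest mean share, and the 2 V segments with the nearest J profile, among those with at least 200 in-frame clonotypes. Further J segments called and the V-end sequences were named after their values were seen.

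Segments (at least 10 clonotypes over the libraries) and V-J pairs were tested with edgeR 4.0.16 (quasi-likelihood, offsets from totals), and mean lengths, counts per clonotype and V-end positions with limma 3.58.1 (at least 50 in-frame clonotypes, or 20 rows of each kind, in every library). Both ran in R 4.3.3 with Benjamini-Hochberg adjustment at 0.05. DESeq2 1.42.0 was an alternative. Single values were compared by exact permutation over 6 splits. The edgeR fits for genotype by clonotypes, frames and J pairing were run on simulated data. So was the limma fit of segments against the rest. The genotype-by-frame test, the limma genotype tests, the permutation and the alternatives were not. Other alternatives left out clonotypes with 1 count, each library, or listings under 1% of their share elsewhere, joined sequences 1 nucleotide apart at a count ratio of 20, weighted by counts, or changed filters and normalization.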

Additional observations from a re-analysis of the deposited data

How the results depend on the processing

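The design has 2 libraries a group, so single libraries decide the genotype comparisons, and the out-of-frame set, with 344 TRBV5 rows, limits what can be seen in it. Medians were 1 to 4 counts per clonotype. The number of segments called ranged, with each library left out in turn, from 0 to 13 for genotype by clonotypes, 0 to 5 by counts, 0 to 1 for the frame ratio, 0 to 1 for genotype in clone size and 2 to 6 for the V-end position. DESeq2 called 1 segment for genotype by counts. Out-of-frame rows gave 9 called V-J pairs. In frame, limma on log2 share ratios called 89 of 259 pairs, against 127 in edgeR. The limma adjusted p was 0.0013 for TRBV4 with TRBJ1-3, 0.012 for TRBV4 with TRBJ2-5 and 0.014 for TRBV2 with TRBJ1-1. Weighting by counts left 7 segments called for length, and leaving out clonotypes with 1 count gave 2 for genotype in length and 8 for the V-end position. With stop-codon rows as the reference, of which TRBV4 holds 39.4%, the frame differences of TRBV2 and TRBV5 turned to 0.68 (not called) and 1.38 (called), and their genotype differences to -0.34 and 1.61.

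Genotype differences that changed sign when a library was left out ranged from -0.65 to 0.021 (TRBV2 by clonotypes), -0.90 to 0.10 (TRBV5 by counts) and -0.061 to 0.15 (TRBV2 frame ratio). For length they ranged from -0.00077 to 0.044 (TRBV2) and -0.085 to 0.00040 (TRBV4) amino acids, and for clone size from -0.50 to 0.080 (TRBV4) and -0.35 to 0.18 (TRBV5). Leaving out the 10 largest clonotypes turned clone size to 0.13 (TRBV4) and 0.26 (TRBV5). TRBV5 between frames without clonotypes of 1 count was 0.14, and TRBV5 with TRBJ2-1 out of frame -0.089, 1 of 5 called pairs with the other sign there. Weighting by counts gave a length difference of 0.13 for TRBV4 and genotype differences of -0.069 for TRBV2 and 0.25 for TRBV4. The cause of these changes was not tested. The frame differences of TRBV4 and TRBV2 against out-of-frame rows, the lengths of TRBV2 and TRBV5, the clone sizes of all 3 and the V-end differences of TRBV4 and TRBV2 kept their direction and call under each alternative run.

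The libraries share replicate numbers, and the labels name no animal or preparation day that would link them. Those numbered 1 had 52577 and 52227 rows, and those numbered 2 had 81858 and 75300. With the number as a replicate block the 5 genotype comparisons called 0 segments, as without it (TRBV4 by clonotypes -0.27 ± 0.16). Same-numbered libraries deviated together by clonotypes (correlation 0.44 over 21 segments) but not by counts (-0.20 over 23), where the crossed numbers, added after the data were seen, also called 0.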
